A study of Homo sapiens with 30 samples.

Results

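Arg-tRNA_Gln(CUG) is a missense-correcting tRNA (mc-tRNA): by its name it is charged with arginine but carries the CUG anticodon of a glutamine tRNA. Its effect on messenger RNA was measured in 6 of the 30 libraries of the series, chosen by their titles. Wild-type HEK293 cells, a human line derived from embryonic kidney, received a plasmid for an EGFP(R96Q)-mCherry mistranslation reporter. In 3 libraries the plasmid carried the reporter alone, and in the other 3 it also carried Arg-tRNA_Gln(CUG). Cells of both groups were transfected by lipid, sorted for mCherry 48 h later, and their RNA was selected for polyA tails, per the labels' protocols. The labels call the 3 replicates of a group independent but do not name separate cultures. The p-values rest on the spread between replicates, estimated over all 30 libraries of the series, and this spread may be technical. These are bulk samples, in which a smaller number of expressing cells and less RNA per cell cannot be told apart. The reporter's own RNA and the mc-tRNA itself are not analysed here.

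A tRNA with the anticodon CUG pairs with the codon CAG, which stands for glutamine. A mc-tRNA charged with arginine can restore arginine where a mutation put glutamine, as in this reporter, but it can also place arginine at CAG codons of other messages. Cells answer misfolded proteins with several programmes: heat shock factor raises cytosolic chaperones, the unfolded protein response raises those of the endoplasmic reticulum (ER), the integrated stress response raises amino acid synthesis and transport, and NRF2 raises antioxidant genes.

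The 6 libraries held 40826508 to 49897780 counts in genes. Replicates differed by more than counting noise, with a chi-square of 7.11 to 14.8 per degree of freedom between pairs, and each was counted as 1 sample. The first principal component took 27.3% of the variance and placed replicate 3 of the reporter alone (-0.631) nearest to the mc-tRNA group (4.96 to 33.1), with the other 2 libraries of the reporter alone at -30.7 and -27. Of 7 markers of HEK293 cells 0 were called: the neurofilament genes NEFL and NEFM were at 48 to 62 CPM (counts scaled to a common library size, with TMM factors), VIM, INA, KRT8 and KRT18 lay between 11.9 and 500.9 CPM, and NEFH was low, at 0.264 to 0.589 CPM. Of 17 markers of stromal, blood, keratinocyte and liver cells, 8 had enough counts to be tested, 0 were called, their sum lay between 34.7 and 40.7 CPM in every library, and CD3E and HBB had 0 counts.

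The response was small. Of 22321 genes tested, 123 were called (0.551%) at an adjusted p under 0.05 (edgeR's quasi-likelihood test with Benjamini-Hochberg adjustment, the source of every adjusted p here), 61 of them higher with the mc-tRNA (0.273%) and 62 lower (0.278%). At an unadjusted p under 0.05 there were 2270 genes (10.2%). The 3 libraries of one group all lay above or below the 3 of the other in 122 of the 123 called genes, against 3618 of all genes tested (16.2%), and SNTB2 was the called gene whose groups overlapped. Of the 123, 58 were called when only these 6 libraries were fitted. Leaving out a single library lowered the count to 79 without replicate 1 and 45 without replicate 2 of the reporter alone, and to 62 without replicate 3 of the mc-tRNA group. Calls of rises went to 38, 14 and 35 in these fits and to 39 without replicate 1 of the mc-tRNA group, and calls of falls to 41, 31 and 27 and to 41 without replicate 2 of that group. A call held in all 13 alternative analyses for 34 genes, 13 higher and 21 lower. With library totals in place of TMM factors 38.3% of the calls were higher, against 49.6% with TMM.

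Most rises were small, and most of the large changes were falls of genes with few counts. Of the 61 rises, 46 were under 1.5-fold and 8 reached 2-fold (0.0358% of the genes tested). Of the 62 falls, 34 reached 2-fold (0.152%). These 34 genes had few counts to begin with: their median went from 1.61 CPM in the reporter alone to 0.304 CPM. Of the 34, 32 (94.1%) stayed under 10 CPM in both groups, against 54.2% of all genes tested. The 8 rises of 2-fold or more were low as well. Their median went from 0.296 to 0.862 CPM, and 7 of them stayed under 10 CPM in both groups. The 53 rises under 2-fold had a median of 39.7 CPM that went to 49.2 CPM, while the median gene tested was at 6.15 and 6.14 CPM. The annotation listed 86.9% of the called rises as protein-coding, against 59.7% of the called falls and 61.6% of all genes tested. Among the falls of 2-fold or more the share was 44.1%.

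**Figure D1:**
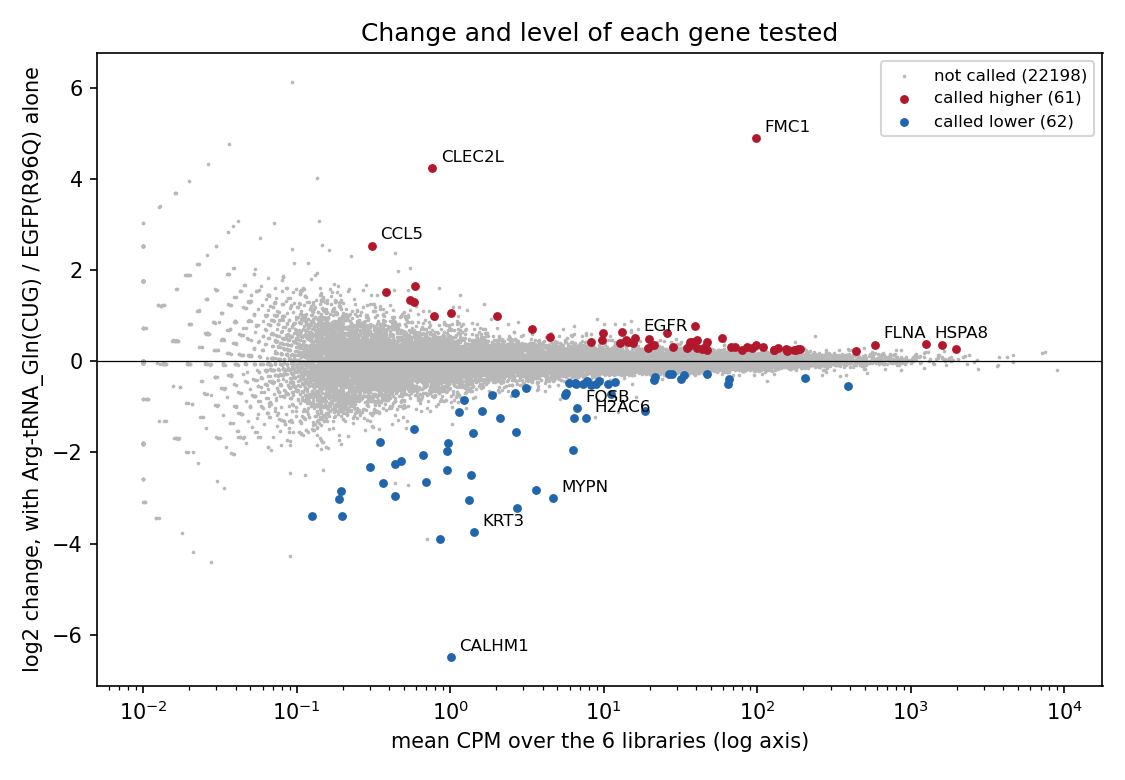
Log2 change with Arg-tRNA_Gln(CUG) over EGFP(R96Q) alone (vertical axis) against the mean CPM of the 6 libraries (horizontal log axis), 1 point per gene tested. Red points (61) were called higher and blue points (62) lower. FMC1 stands apart at a log2 change of 4.91, and most other large changes, rises and falls, lie at the low end of the CPM axis.

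FMC1, which encodes an assembly factor of the mitochondrial ATP synthase, had the largest rise among the called genes. It was measured at 6.12, 6.46 and 6.48 CPM in the reporter alone and at 202, 196 and 175 CPM with the mc-tRNA. The groups were far apart, and the gene rose by 4.91 ± 0.13 (log2, SE; 30-fold; adjusted p = 4.91e-22). CLEC2L, a gene of the C-type lectin family, had the next largest rise. It went from 0.0654, 0.0425 and 0.109 CPM (11 counts in all) to 1.61, 1.51 and 1.27 CPM (225 counts), a log2 change of 4.25 ± 0.45 (adjusted p = 1.18e-07). Both calls held in all 13 alternatives.

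Both genes lie on the plus strand of chromosome 7 (GRCh38), FMC1 at chr7:139339457-139346319 and CLEC2L at chr7:139523856-139544984, 178 kb apart. Of the 16 genes tested within 500 kb of FMC1, CLEC2L was the 1 called. LUC7L2, whose annotated start lies inside FMC1 on the same strand, was at 106 ± 7.7 CPM in the reporter alone and 103 ± 4.18 CPM (SD, n = 3) with the mc-tRNA, with a log2 change of -0.04 ± 0.05. The other neighbours, from KIAA1549 to TBXAS1, had log2 changes of -0.84 to 0.32. Reads that FMC1 shares with LUC7L2 or with the readthrough gene FMC1-LUC7L2 could be split between them by the counting, so the level of FMC1 carries that uncertainty; the readthrough gene itself had 0 to 3 counts in each of the 6 libraries. For the next 4 rises after FMC1 and for the 5 largest falls, 0 of the genes tested within 100 kb were called, where 0.551% of all genes were. Each of these rises and falls had only 0 to 11 such neighbours, which at that share would seldom hold a call.

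**Figure D2:**
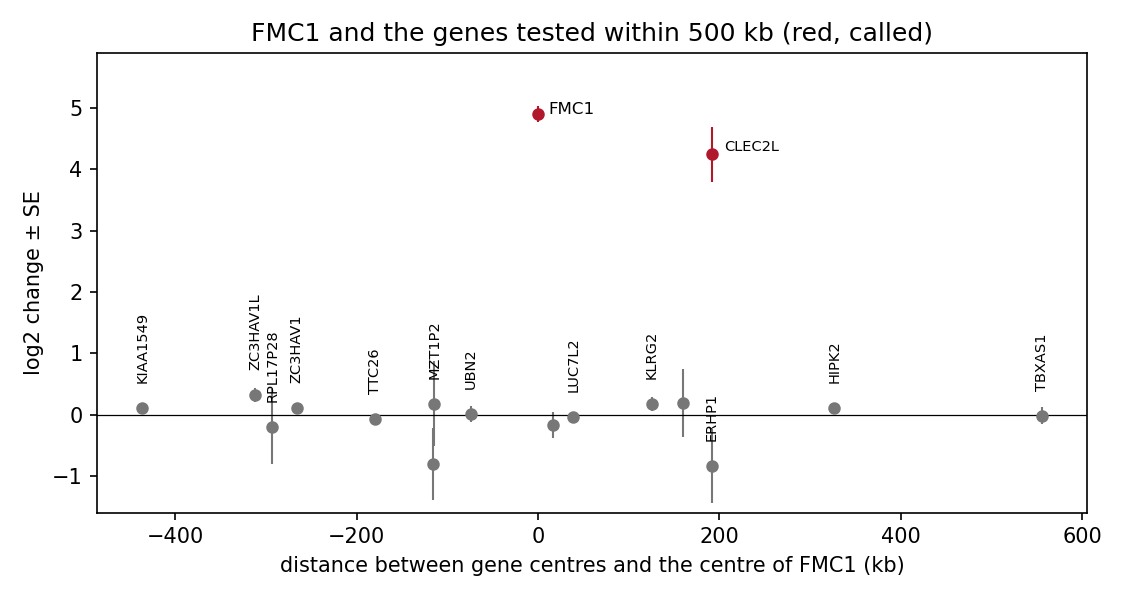
Log2 change ± SE (vertical axis) of FMC1 and the 16 genes tested within 500 kb, against the distance between gene centres in kb (horizontal axis). FMC1 and CLEC2L, in red, were called at 4.91 and 4.25, and the other 15 genes, in grey, were not called. Loci without a symbol are drawn without a name.

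The level of FMC1 in the other groups of the series gives the setting of this rise. With the reporters alone, FMC1 averaged 6.35 ± 0.202 CPM with EGFP(R96Q), 7.49 with EGFP(R96C), 7.27 with EGFP(R96H), 6.7 with EGFP(R96W) and 2.35 with EGFP(R65). With a mc-tRNA added it averaged 2.35 CPM for Ser-tRNA_Arg(CCG), 10.5 for Arg-tRNA_Trp(CCA), 17 for Arg-tRNA_Cys(GCA) and 75.1 ± 2.12 for Arg-tRNA_His(GUG), against 191 ± 14.3 CPM (SD, n = 3) for Arg-tRNA_Gln(CUG). The rise with Arg-tRNA_Gln(CUG) exceeded that with Arg-tRNA_His(GUG) by 1.54 on the log2 scale (adjusted p = 3.71e-06). For CLEC2L the rise with Arg-tRNA_His(GUG) was 5.07 (adjusted p = 5.43e-05), from 2 counts in all to 72, and the difference between both effects was not called (-0.81, adjusted p = 0.801). CLEC2L averaged 4.73 CPM with EGFP(R65) alone and 2.21 CPM with Ser-tRNA_Arg(CCG), both above the 1.46 CPM reached with Arg-tRNA_Gln(CUG). With EGFP(R96C), EGFP(R96H) and EGFP(R96W) alone it averaged 0.0648, 0.0118 and 0.0144 CPM.

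Among cytosolic chaperones, 3 of 32 members tested rose and 0 fell, where 0.273% of all genes rose and 0.278% fell, and the list's median log2 change was 0.11, against 0.00 over all genes tested. HSPA8, HSP90AA1 and DNAJB1 were the 3. HSPA8 encodes the constitutive Hsp70 that folds new proteins, HSP90AA1 an inducible Hsp90, and DNAJB1 an Hsp40 co-chaperone that delivers clients to Hsp70. Heat shock factor binds alternating GAA and TTC units in the promoters of such genes. The run GAA, TTC, GAA, with 2 bases of any kind between each of these 3 units, was looked for on both strands in the 250 bases before each RefSeq start (GRCh38.p14). It was in 0.557% of the 27305 genes with a promoter entry, in 6 of the 27 chaperone members with an entry (22.2%), in 2 of 50 genes called higher and in 0 of 32 called lower. The 2 were HSPA8, with 2 matches, and HSP90AA1, with 1. The 240 bases before their starts are shown 5′ to 3′ on the gene's strand because they carry the matches, in capitals: chr11:123062137-123062376 (minus strand) for HSPA8 and chr14:102087045-102087284 (minus strand) for HSP90AA1.
HSPA8: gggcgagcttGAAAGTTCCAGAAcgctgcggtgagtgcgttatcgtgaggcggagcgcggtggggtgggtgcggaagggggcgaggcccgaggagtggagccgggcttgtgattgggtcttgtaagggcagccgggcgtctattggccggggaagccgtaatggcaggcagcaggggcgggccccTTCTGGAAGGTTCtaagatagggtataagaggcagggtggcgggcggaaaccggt
HSP90AA1: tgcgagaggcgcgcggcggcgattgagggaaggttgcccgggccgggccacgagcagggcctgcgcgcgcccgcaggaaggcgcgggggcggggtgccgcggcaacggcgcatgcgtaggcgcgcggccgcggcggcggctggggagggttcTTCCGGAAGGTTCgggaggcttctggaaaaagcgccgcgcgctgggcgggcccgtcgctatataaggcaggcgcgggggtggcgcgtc
DNAJB1 had no match in these windows, which says only that this run is not there, and HSPA6, HSP90AB1, DNAJB6 and CHORDC1, which had matches, were not called. A match is a description of the sequence and not a binding site.

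HSPA8 was measured at 1106, 1125 and 1078 CPM in the reporter alone and at 1428, 1426 and 1446 CPM with the mc-tRNA. It rose by 0.38 ± 0.08 (log2, SE; adjusted p = 0.0106), and the call held in all 13 alternatives. With the other reporters alone HSPA8 averaged 1098 to 1436 CPM, a range that holds the level of both groups. HSP90AA1 went from 1421, 1261 and 1481 CPM to 1714, 1884 and 1728 CPM. The groups did not overlap (log2 change 0.36 ± 0.08, adjusted p = 0.0189), but the call was lost without replicate 2 of the reporter alone (adjusted p = 0.242) and without replicate 2 of the mc-tRNA group (0.125). DNAJB1 went from 93.4, 98.6 and 97.7 CPM to 117, 119 and 126 CPM (0.32 ± 0.08, adjusted p = 0.0465), and its call was lost when any 1 of the 6 libraries was left out (adjusted p = 0.0777 to 0.253).

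Further chaperones had values in the same direction without being called. The 3 libraries with the mc-tRNA lay above the 3 of the reporter alone for 14 of the 32 members, against 8.33% of all genes tested. HSPA1B, an inducible Hsp70, averaged 194 and 284 CPM (log2 change 0.55, adjusted p = 0.219), and HSPH1, an Hsp110 exchange factor, 183 and 223 CPM (0.29, adjusted p = 0.119). HSPA1A and HSPA1B are near-identical copies whose reads the counting could split, and HSPA1A was counted at 0.349, 0.786 and 0.911 CPM and then 1.1, 0.888 and 0.888 CPM, with overlapping groups. Of the 8 subunits of the TRiC/CCT chaperonin 0 were called (median 0.05). Among 12 mitochondrial chaperones and proteases HSPA9, the mitochondrial Hsp70, was the 1 called: it went from 422, 402 and 381 CPM to 495, 474 and 447 CPM (0.23 ± 0.06, adjusted p = 0.0463), a call lost without any 1 of 5 libraries (replicates 2 and 3 of the reporter alone and each library of the mc-tRNA group, adjusted p = 0.0506 to 0.214). With Arg-tRNA_Cys(GCA), set against its own reporter, 29 of the 32 cytosolic chaperones were called higher with a median of 3.16, where 30.2% of all genes tested were called higher. The count was 31 with Arg-tRNA_Trp(CCA) (median 1.09, all genes 20.7%), 14 with Arg-tRNA_His(GUG) (median 0.24, all genes 1.56%) and 7 with Ser-tRNA_Arg(CCG), where 13 were called lower (median -0.14, all genes 26.6% higher and 30.7% lower).

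None of the 30 ER unfolded protein response genes was called (median 0.08), where 0.551% of all genes were. At that share a list of this size would seldom hold a call. Of the 30 changes 24 were above 0. In 11 of the 30 the 3 libraries with the mc-tRNA lay above the 3 of the reporter alone, against 8.33% of all genes tested. In 2 they lay below, against 7.88%. HSPA5, the ER Hsp70 known as BiP, was at 492, 524 and 521 CPM in the reporter alone and at 576, 564 and 593 CPM with the mc-tRNA. The groups did not overlap, but the log2 change of 0.17 ± 0.07 did not pass the test (adjusted p = 0.363).

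Among 22 NRF2 targets tested, 3 rose (0.273% of all genes) and 0 fell (median 0.13). Of the 22 changes 14 were above 0 and 8 below, down to -0.36. In 10 of the 22 the 3 mc-tRNA libraries lay above the 3 of the reporter alone, against 8.33% of all genes tested. In 1 they lay below, against 7.88%. HMOX1 encodes haem oxygenase, PIR encodes pirin, a nuclear iron-binding protein, and MAFG encodes a small MAF protein that pairs with NRF2 on DNA. MAFG went from 53.6, 47.2 and 44.6 CPM to 72, 67.6 and 68.3 CPM (log2 change 0.52 ± 0.06, adjusted p = 8.19e-07), and PIR from 10.1, 10.6 and 10.3 CPM to 16.5, 16.3 and 15.6 CPM (0.64 ± 0.09, adjusted p = 1.66e-05). Both calls held in all 13 alternatives. HMOX1 varied more within its groups, at 36, 28 and 22.6 CPM and then 56.7, 51 and 40.1 CPM (0.77 ± 0.16, adjusted p = 0.022). Its call was lost without replicate 2 (adjusted p = 0.133) or 3 (0.109) of the reporter alone and without replicate 1 (0.117) or 2 (0.0825) of the mc-tRNA group. With the other reporters alone PIR averaged 11.8 to 29.8 CPM and MAFG 50.2 to 196.3 CPM. These ranges hold the 16.1 and 69.3 CPM seen with the mc-tRNA. HMOX1 averaged 29 to 43.2 CPM with those reporters, below its 49.2 CPM with the mc-tRNA. Of the other NRF2 targets, GCLM, a subunit of the enzyme that makes the glutathione precursor, averaged 25.3 and 30.8 CPM (0.29, adjusted p = 0.126), and NQO1 3.73 and 4.31 CPM (0.21, adjusted p = 0.713).

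A few genes of protein degradation were called higher. Of 31 proteasome subunits, PSMD11, a lid subunit of the regulatory particle, was the 1 called, where 0.273% of all genes were called higher. It went from 145.9 ± 3.42 to 173 ± 4.23 CPM (SD, n = 3; log2 change 0.25 ± 0.05, adjusted p = 0.0216), and the call was lost without any 1 of 4 libraries (replicates 2 and 3 of the reporter alone, replicates 1 and 3 of the mc-tRNA group, adjusted p = 0.083 to 0.16). The other subunits were not called, with 26 of the 31 changes above 0 and a median of 0.10. For 15 of the 31 the 3 mc-tRNA libraries lay above the 3 of the reporter alone, against 8.33% of all genes tested. In 0 of the 31 did they lie below, against 7.88%. UFD1 and NPLOC4, which together guide ubiquitinated proteins to the segregase p97, rose by 0.36 ± 0.06 (adjusted p = 0.000449) and 0.27 ± 0.06 (adjusted p = 0.0144). The call on UFD1 held in all 13 alternatives, and that on NPLOC4 was lost without replicates 2 or 3 of the reporter alone or replicate 1 of the mc-tRNA group (adjusted p = 0.0863 to 0.0919).

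Of 27 autophagy and lysosome genes, 2 rose (0.273% of all genes) and 0 fell (median 0.08). SQSTM1 encodes the ubiquitin-binding autophagy receptor p62. It went from 121.5 ± 6.09 to 150.1 ± 8.06 CPM (SD, n = 3; 0.30 ± 0.07, adjusted p = 0.0219), and its call was lost without replicates 2 or 3 of the reporter alone or replicate 1 of the mc-tRNA group (adjusted p = 0.0709 to 0.142). CTSK, a lysosomal cysteine protease, went from 2.59, 2.61 and 2.57 CPM to 4.31, 3.82 and 4.59 CPM (0.71 ± 0.13, adjusted p = 0.00164), a call that held in all 13 alternatives.

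**Figure D3:**
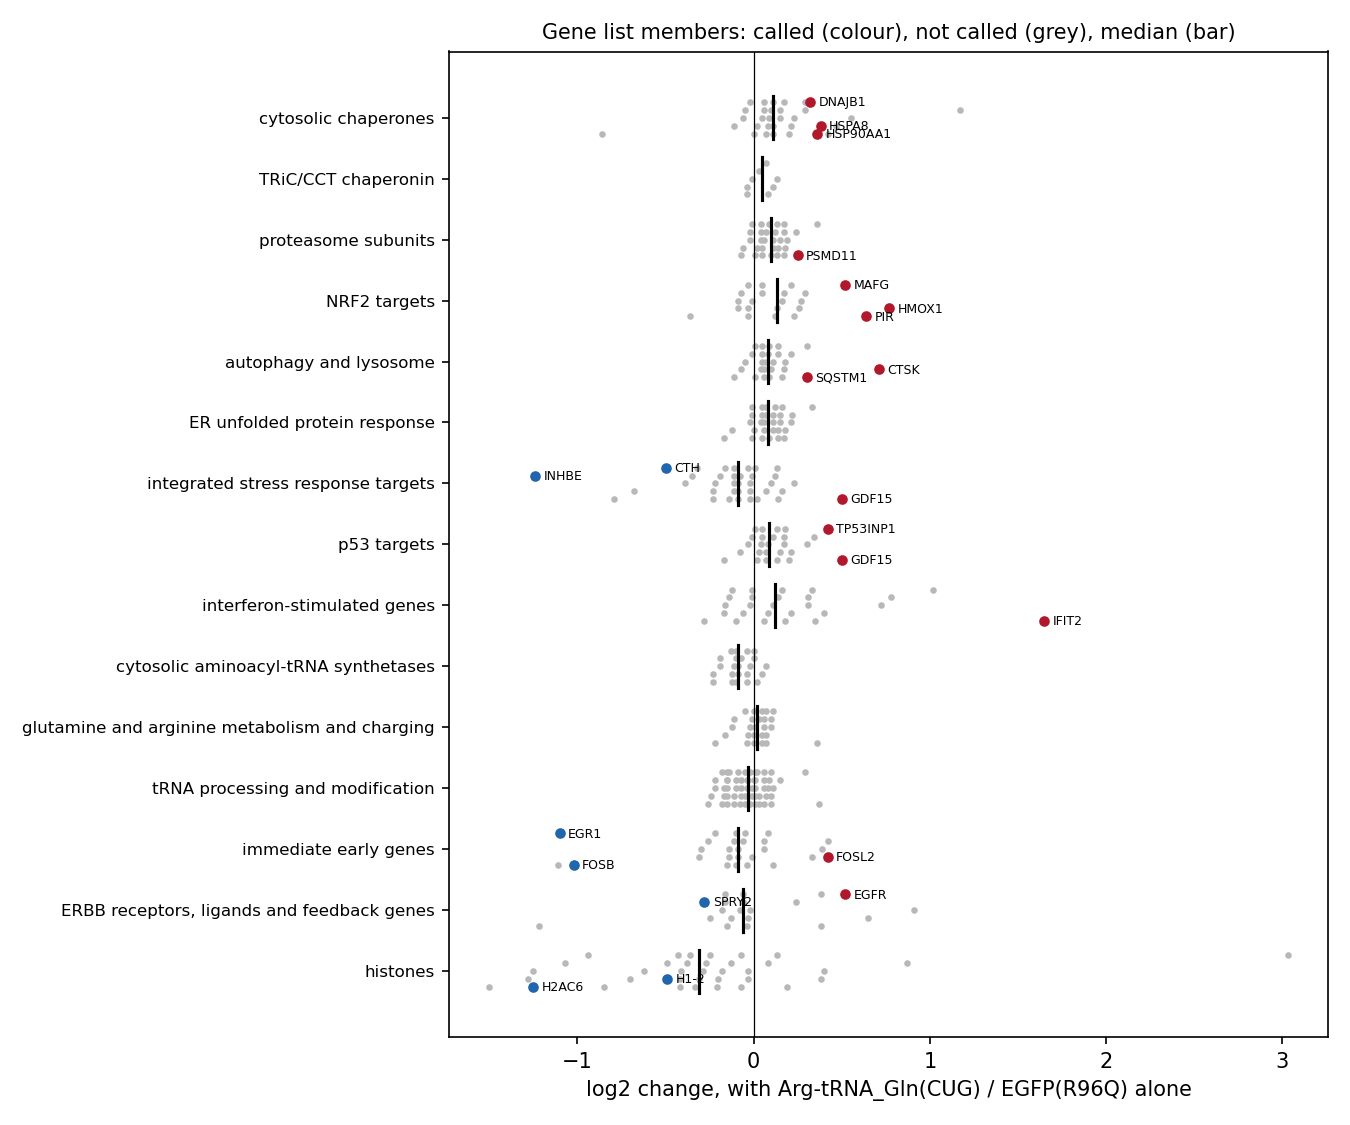
Log2 change of each tested member (points) of 15 gene lists, with the list's median as a black bar. Members called higher are red and members called lower are blue, both named, and grey members were not called. Most members lie near 0, and the histone list has the lowest median, -0.31.

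Targets of the integrated stress response gave calls in both directions. Of 36 members 1 rose (0.273% of all genes) and 2 fell (0.278% of all genes), and the median was -0.09. INHBE, which encodes a subunit of activin E and is induced by this response, fell from 9.8, 9.45 and 7.76 CPM to 4.23, 3.55 and 3.59 CPM (log2 change -1.24 ± 0.25, adjusted p = 0.02). CTH, the enzyme that makes cysteine from cystathionine, fell from 79.7, 77.9 and 68 CPM to 55.7, 54.9 and 48.8 CPM (-0.50 ± 0.10, adjusted p = 0.0131). GDF15, a stress cytokine that is also a p53 target, rose from 17, 17.4 and 15 CPM to 25.9, 23.5 and 20.2 CPM (0.50 ± 0.12, adjusted p = 0.0321). None of the 3 calls survived each removal of 1 library: INHBE and GDF15 were lost in 5 of 6 such fits (adjusted p = 0.0508 to 0.105 and 0.0959 to 0.188; INHBE held without replicate 3 of the reporter alone, GDF15 without replicate 3 of the mc-tRNA group), and CTH in 3 (replicates 1 and 2 of the reporter alone and replicate 3 of the mc-tRNA group, 0.084 to 0.0947).

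The regulators of this response were not called. DDIT3, the transcription factor CHOP, was at 24.4, 23.7 and 22.4 CPM and then 25, 24.2 and 21.9 CPM (0.02 ± 0.15), and ATF3 at 132.2, 120.9 and 112 CPM and then 119, 112 and 101 CPM (-0.14 ± 0.08). ASNS, asparagine synthetase, was at 365, 397 and 388 CPM and then 284, 303 and 332 CPM. Its groups did not overlap, but the change of -0.32 ± 0.12 was not called (adjusted p = 0.346). In 11 of the 36 members the groups did not overlap and the mc-tRNA libraries were lower, among them CHAC1 (20.5 and 11.8 CPM), DDIT4 (244 and 186 CPM) and PSPH (39.8 and 34 CPM), against 7.88% of all genes tested. With Arg-tRNA_His(GUG) 18 of these 36 genes were called lower, where 0.963% of all genes were, and with Arg-tRNA_Cys(GCA) all 36 were called higher, where 30.2% were.

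Of 26 enzymes, transporters and sensors of glutamine and arginine 0 were called, where 0.551% of all genes were, so that a list of this size would seldom hold a call. In 0 of the 26 did the groups fail to overlap, against 16.2% of all genes, and the median was 0.02. QARS1, which charges glutamine tRNAs, was at 308, 326 and 322 CPM in the reporter alone and 324, 307 and 322 CPM with the mc-tRNA (log2 change -0.00 ± 0.07), and RARS1, which charges arginine tRNAs, at 129, 121 and 118 and then 121, 123 and 120 CPM (-0.02 ± 0.06). The sign of these changes and of that of DDIT3 turned in single alternatives. Of 23 cytosolic aminoacyl-tRNA synthetases 0 were called (median -0.09), of 61 tRNA processing and modification genes 0 (median -0.03) and of 24 ribosome quality control genes 0 (median 0.02). POLR3E, a subunit of RNA polymerase III, which transcribes tRNA genes, was the 1 called of 30 genes of that machinery. It went from 87.2, 81.1 and 80.4 CPM to 104, 98.7 and 103 CPM (0.30 ± 0.06, adjusted p = 0.00459), and the call was lost without replicate 2 of the reporter alone (adjusted p = 0.0582).

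The share of CAG codons was compared because they pair with the mc-tRNA's anticodon. Over coding sequences of at least 100 codons in GENCODE, CAG made up a median of 3.28% of codons in 13426 genes tested, 3.28% in 51 genes called higher and 3.75% in 36 called lower, with quartiles over all genes of 2.42% and 4.25%. Split into 5 groups of equal size by this share, from the lowest to the highest, 3, 5, 8, 7 and 13 genes were called lower and 11, 7, 11, 11 and 11 higher. The median log2 change was -0.008 in the lowest group and 0.009 in the highest. Of 9 genes with a repeat of CAG known from polyglutamine disease, such as HTT, ATXN1 and ATXN2, 0 were called and the median change was 0.01.

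Of 26 interferon-stimulated genes tested, IFIT2, which encodes an antiviral RNA-binding protein, was the 1 that rose, and 0 fell (median 0.12). IFIT2 lies within the span of LIPA on the other strand, and LIPA averaged 72 and 69.9 CPM, so that without a stated strand setting reads of both cannot be told apart. IFIT2 went from 0.283, 0.255 and 0.31 CPM to 0.817, 1.07 and 0.793 CPM (log2 change 1.65 ± 0.36, adjusted p = 0.0187). Its neighbours in the family did not pass the test: IFIT3 averaged 0.443 and 0.759 CPM (0.78, adjusted p = 0.262), and IFIT1 was at 4.86, 5.46 and 5.32 CPM and then 5.85, 5.82 and 5.52 CPM (0.14 ± 0.13, adjusted p = 0.812). CCL5, a chemokine often induced with these genes, went from 0.131, 0.085 and 0.0546 CPM to 0.456, 0.557 and 0.567 CPM (2.54 ± 0.54, adjusted p = 0.0168). Both calls rest on few counts and were lost without any 1 of 4 libraries, IFIT2 without each library of the reporter alone or replicate 2 of the mc-tRNA group (adjusted p = 0.0574 to 0.128) and CCL5 without replicates 2 or 3 of either group (0.056 to 0.123).

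Immediate early genes, which growth factor signals switch on within minutes, gave 2 falls (0.278% of all genes) and 1 rise (0.273% of all genes) among 27 tested (median -0.09). EGR1, a zinc-finger transcription factor, fell from 21.7, 23.5 and 30.5 CPM to 15.9, 10.6 and 8.88 CPM (log2 change -1.10 ± 0.16, adjusted p = 0.000449). The call held in each fit without 1 library, but was lost when only the 6 libraries were fitted (adjusted p = 0.262). With the other reporters alone EGR1 averaged 11.8 CPM for EGFP(R96C), 10.8 for EGFP(R96H), 11.1 for EGFP(R96W) and 32.3 for EGFP(R65), so the mc-tRNA group, at 11.8 CPM, was at the level of the first 3 and EGFP(R96Q) alone, at 25.2 CPM, was above them. FOSB, a partner of JUN in AP-1, fell from 7.58, 8.92 and 10.3 CPM to 6.63, 3.88 and 2.76 CPM (-1.02 ± 0.22, adjusted p = 0.0261), and FOS averaged 16.8 and 7.81 CPM with overlapping groups (-1.11, adjusted p = 0.0557). FOSL2, another FOS relative, rose from 6.27, 7.92 and 7.03 CPM to 9.84, 9.52 and 9.07 CPM (0.42 ± 0.10, adjusted p = 0.0468). The calls on FOSB and FOSL2 were lost without any 1 of 4 libraries (replicates 2 and 3 of either group, adjusted p = 0.12 to 0.137) and any 1 of 5 (all but replicate 2 of the reporter alone, 0.0864 to 0.302).

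Of 20 ERBB receptors, ligands and feedback genes, 1 rose (0.273% of all genes) and 1 fell (0.278% of all genes; median -0.06). EGFR, the receptor of epidermal growth factor, rose from 12.3, 12.6 and 14.6 CPM to 17.5, 18.1 and 21.3 CPM (0.52 ± 0.08, adjusted p = 0.000228), in all 13 alternatives. With the other reporters alone EGFR averaged 14.2 CPM for EGFP(R96C), 28.1 for EGFP(R96H), 22.9 for EGFP(R96W) and 24.8 for EGFP(R65). EGFP(R96Q) alone, at 13.2 CPM, was below all of these, and the mc-tRNA group, at 19 CPM, was within their range. SPRY2, a feedback inhibitor of receptor tyrosine kinase signals, fell from 29.8, 31.2 and 31 CPM to 24.2, 26.9 and 25 CPM (-0.28 ± 0.07, adjusted p = 0.0465), a call lost without any library but replicate 2 of the mc-tRNA group (adjusted p = 0.0928 to 0.235). The related receptors were not called: ERBB2 averaged 65.3 and 64.3 CPM (-0.02) and ERBB3 14.6 and 14.2 CPM (-0.04).

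Of 37 replication-dependent histone genes tested, 2 fell (0.278% of all genes) and 0 rose, and the median was -0.31. H2AC6, an H2A gene of the large cluster on chromosome 6, fell from 12.4, 10.6 and 9.31 CPM to 4.96, 4.36 and 4.31 CPM (log2 change -1.25 ± 0.12, adjusted p = 7.02e-09). The call held in all 13 alternatives. With the other reporters alone H2AC6 averaged 13.3 CPM for EGFP(R96C), 2.92 for EGFP(R96H), 4.59 for EGFP(R96W) and 4.76 for EGFP(R65). The 4.54 CPM of the mc-tRNA group lay within this range, and so did the 10.8 CPM of EGFP(R96Q) alone. H1-2, within 100 kb of H2AC6, fell from 11.7, 12.9 and 12.7 CPM to 9.29, 9.1 and 8.18 CPM (-0.49 ± 0.11, adjusted p = 0.0258), and its call was lost without any library but replicate 1 of the reporter alone (adjusted p = 0.0549 to 0.195). Messages of replication-dependent histones mostly lack polyA tails, so libraries selected for polyA hold few of their reads, and 30 of the 37 changes were below 0. Of 31 cell cycle genes 0 fell and 1 rose, RRM2, a subunit of ribonucleotide reductase, which rose from 120, 118 and 115 CPM to 140.6, 134.2 and 144.1 CPM (0.24 ± 0.06, adjusted p = 0.0305, lost without any library but replicate 2 of the mc-tRNA group at adjusted p = 0.0905 to 0.203).

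Other lists held few or no calls. Of 26 p53 targets, GDF15 and TP53INP1, an autophagy and apoptosis protein, were the 2 called. TP53INP1 went from 33.7, 32.4 and 31.1 CPM to 41.3, 46.8 and 41.7 CPM (0.42 ± 0.09, adjusted p = 0.0256; lost without any library but replicate 1 of the mc-tRNA group, adjusted p = 0.0631 to 0.152). CDKN1A, the cell cycle inhibitor p21, was at 107, 93.8 and 97 CPM and then 123, 110 and 109 CPM (0.20 ± 0.08, adjusted p = 0.342). None was called among 79 cytosolic ribosomal proteins (median 0.06, 71 above 0), 13 mitochondrially encoded mRNAs (median -0.09, 12 below 0) or 23 cholesterol synthesis genes (median -0.01). Of all genes tested 0.551% were called, so lists of these sizes would seldom hold a call. In 20 of the 79 ribosomal proteins the 3 mc-tRNA libraries lay above the 3 of the reporter alone, against 8.33% of all genes, and in 0 below. In 6 of the 13 mitochondrial mRNAs they lay below, against 7.88%, and in 0 above. Of 23 ATP synthase subunits and assembly factors FMC1 was the 1 called, and the median of that list was -0.01.

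Further called rises were in genes outside the lists. FLNA, which encodes filamin A and crosslinks actin, went from 514 ± 6.59 to 663 ± 39 CPM (SD, n = 3; log2 change 0.37 ± 0.07, adjusted p = 0.00224) and was called in all 13 alternatives. MSN, the membrane linker moesin, rose by 0.27 ± 0.06 (adjusted p = 0.0167) and ACTG1, the gamma actin of non-muscle cells, by 0.27 ± 0.06 (adjusted p = 0.0258). Both were lost without replicates 2 or 3 of the reporter alone or replicate 1 of the mc-tRNA group, and ACTG1 also without replicates 1 of the reporter alone or 3 of the mc-tRNA group (adjusted p = 0.0783 to 0.179 over both). UNKL, a zinc-finger protein, KLHL29, a kelch-domain protein, MLLT11 and FAM219A rose by 0.63, 0.62, 0.43 and 0.43 in all 13 alternatives.

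The remaining large rises rest on few counts. JPH2, a junctional membrane protein of muscle, went from 0.218, 0.17 and 0.2 CPM to 0.646, 0.495 and 0.567 CPM (1.53, adjusted p = 0.0468). STYK1, a kinase-like membrane protein, went from 0.871, 0.701 and 0.401 to 1.22, 1.75 and 1.13 CPM (1.07, adjusted p = 0.0253), and DCT, a melanin-pathway enzyme, from 0.261, 0.658 and 0.637 to 0.931, 0.991 and 1.21 CPM (0.99, adjusted p = 0.0368). LINC00324, a non-coding RNA, went from 1.35, 1.21 and 1.51 to 2.92, 2.85 and 2.32 CPM (0.99, adjusted p = 0.0167). None of these 4 calls held without each library in turn: JPH2 was lost in 6 such fits (adjusted p = 0.0735 to 0.245), DCT in 5 (all but replicate 3 of the reporter alone, 0.0545 to 0.319), LINC00324 in 4 (replicates 1 and 2 of either group, 0.0711 to 0.142) and STYK1 in 3 (replicates 2 and 3 of the reporter alone and replicate 2 of the mc-tRNA group, 0.0991 to 0.191). A pair of called short loci lie within expressed genes on the same strand, so their counts are uncertain: RPS15AP10 within GPBP1L1 (0.327, 0.404 and 0.2 CPM, then 0.513, 0.888 and 0.944 CPM) and RN7SL535P within CASP2 (0.283, 0.255 and 0.455 CPM, then 0.57, 1.01 and 0.907 CPM). They were lost without any 1 of 5 and any 1 of 4 libraries (adjusted p = 0.0709 to 0.244 and 0.151 to 0.245), RPS15AP10 in all fits but that without replicate 1 of the mc-tRNA group, and RN7SL535P without replicates 1 or 2 of the reporter alone or replicates 2 or 3 of the mc-tRNA group.

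The largest falls were in genes with few counts in the reporter alone. CALHM1, a calcium-permeable channel of taste and brain cells, was at 2.31, 2.06 and 1.62 CPM in the reporter alone and at 0.057, 0 and 0 CPM with the mc-tRNA. Its 292 counts became 3, a ratio of 101 (95% interval 34.4 to 495, counting error only; adjusted p = 1.3e-08). KRT3, a keratin of the cornea, fell from 2.53, 3.55 and 1.89 CPM to 0.266, 0.186 and 0.132 CPM (log2 change -3.75 ± 0.34, adjusted p = 1.23e-08). MYPN, the sarcomere protein myopalladin, fell from 9.5, 9.69 and 5.83 CPM to 1.29, 1.22 and 0.586 CPM (-3.01 ± 0.29, adjusted p = 1.2e-07). All 3 were called in all 13 alternatives. In each, replicate 3 of the reporter alone was the lowest of its group and still above every library with the mc-tRNA.

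Non-coding loci were among the large falls. F11-AS1 went from 7.06, 6.9 and 5.19 CPM to 0.95, 0.949 and 0.812 CPM (-2.82 ± 0.23, adjusted p = 8.84e-10), LINC00485 from 2.72, 2.63 and 1.75 to 0.361, 0.227 and 0.264 CPM (-3.04 ± 0.32, adjusted p = 6.19e-08) and JAZF1-AS1 from 2.44, 2.15 and 2.42 to 0.437, 0.516 and 0.283 CPM (-2.50 ± 0.35, adjusted p = 2.95e-05). The pseudogenes IRS3P and KLKP1 went from 1.98, 1.64 and 1.2 to 0.038, 0.144 and 0.132 CPM (-3.91 ± 0.37, adjusted p = 7.02e-09) and from 1.5, 1.06 and 1.02 to 0.19, 0.227 and 0.151 CPM (-2.64 ± 0.32, adjusted p = 1.59e-06). These 5 were called in all 13 alternatives, and so were C6orf163 (-1.94), LINC00858 (-1.54), B3GALT4 (-1.80), PM20D1 (-1.58), TEKT2 (-1.24) and NEDD9 (-1.09).

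Other large falls lost their call when single libraries were left out. KRT80 went from 0.392, 0.34 and 0.364 CPM to 0.038, 0.0413 and 0.0189 CPM (-3.39, adjusted p = 0.00559), MIR6777, a locus inside SREBF1 on the same strand whose reads may be those of SREBF1, from 0.893, 0.828 and 0.601 to 0.171, 0.103 and 0.0189 CPM (-2.95, adjusted p = 0.00358). Both were lost without replicate 3 of the mc-tRNA group (adjusted p = 0.0605 and 0.0506). RNU2-49P went from 0.457, 0.297 and 0.255 CPM to 0.057, 0.0413 and 0.0189 CPM (-3.02, adjusted p = 0.0256; lost without any library but replicate 3 of the reporter alone, 0.0725 to 0.193). ADGRF5P2 went from 0.261, 0.212 and 0.219 CPM to 0.038, 0.0206 and 0 CPM, 34 counts in all to 3, a ratio of 11.8 (95% interval 3.71 to 60.1; adjusted p = 0.0366, lost without any 1 of the 6 libraries at 0.0753 to 0.255). The last pair, like ASNSP1 and MTATP6P1 among the smaller falls, are copies of other genes, and reads could be assigned to either copy.

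**Figure D4:**
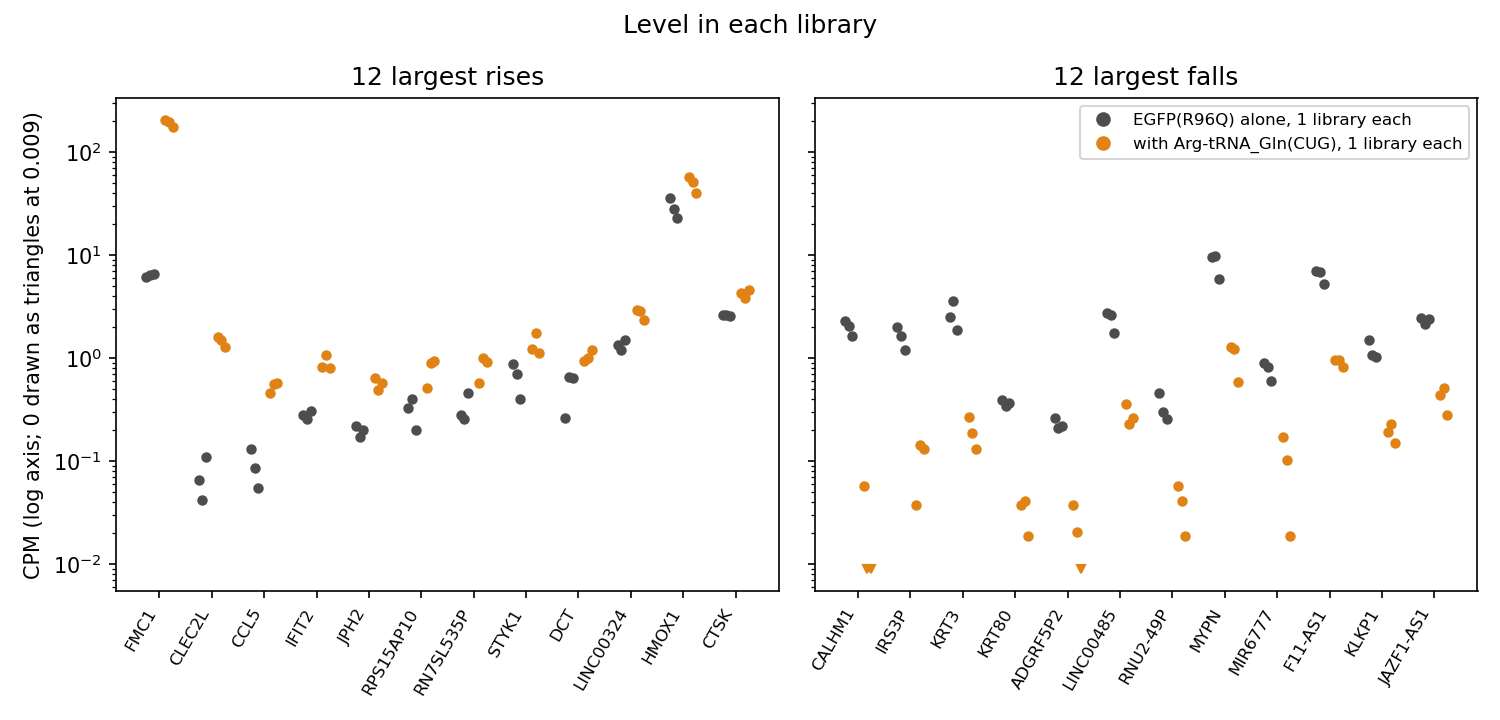
CPM in each library (points, log axis) of the 12 called genes with the largest rise (left) and the 12 with the largest fall (right) that have a symbol, for EGFP(R96Q) alone (dark grey) and with Arg-tRNA_Gln(CUG) (orange). A library at 0 is drawn as a triangle at the bottom. The groups do not overlap in any of the 24 genes, and every level other than those of FMC1 and HMOX1 is under 10 CPM.

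The called genes were looked up in the other 4 mc-tRNA comparisons of the series, each against its own reporter and with no library in common. Each of those comparisons gave more calls: 57.3% of genes were called with Ser-tRNA_Arg(CCG), 60.7% with Arg-tRNA_Cys(GCA), 42.5% with Arg-tRNA_Trp(CCA) and 2.52% with Arg-tRNA_His(GUG). Of the 61 rises, 32 (52.5%) were also called higher with Arg-tRNA_Trp(CCA), where 20.7% of all genes were, and 6 lower. With Arg-tRNA_Cys(GCA) 30 (49.2%) were called higher, where 30.2% of all genes were, and 19 lower, and with Ser-tRNA_Arg(CCG) 19 (31.1%) higher, where 26.6% were, and 27 lower. With Arg-tRNA_His(GUG) 8 (13.1%) were called higher, where 1.56% of all genes were, and 0 lower. Of all genes, 21.7% were called lower with Arg-tRNA_Trp(CCA), 30.5% with Arg-tRNA_Cys(GCA), 30.7% with Ser-tRNA_Arg(CCG) and 0.963% with Arg-tRNA_His(GUG). From the other side, the shared rises made up 0.691% of the rises with Arg-tRNA_Trp(CCA), 0.444% with Arg-tRNA_Cys(GCA), 0.32% with Ser-tRNA_Arg(CCG) and 2.3% with Arg-tRNA_His(GUG).

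The 62 falls were looked up in the same way. Of these, 45 (72.6%) were also called lower with Arg-tRNA_Trp(CCA), where 21.7% of all genes were, 32 (51.6%) with Arg-tRNA_Cys(GCA), where 30.5% were, 32 (51.6%) with Ser-tRNA_Arg(CCG), where 30.7% were, and 11 (17.7%) with Arg-tRNA_His(GUG), where 0.963% were. These make up 0.927%, 0.471%, 0.467% and 5.12% of the falls in those comparisons. Other falls were called higher there: 5 of the 62 (8.06%) with Arg-tRNA_Trp(CCA), where 20.7% of all genes were. The count was 16 (25.8%) with Arg-tRNA_Cys(GCA), where 30.2% were, and 11 (17.7%) with Ser-tRNA_Arg(CCG), where 26.6% were. With Arg-tRNA_His(GUG) it was 4 (6.45%), where 1.56% were. Of the 34 falls of 2-fold or more, 28 were called lower with Arg-tRNA_Trp(CCA). CALHM1 had 173, 68 and 172 counts in all with EGFP(R96C), EGFP(R96H) and EGFP(R96W) alone, against 0, 5 and 0 counts with the matching mc-tRNA, and 3 and 0 counts with EGFP(R65) without and with its mc-tRNA.

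Each difference between effects was also tested across all genes. The effect of Arg-tRNA_Gln(CUG) differed from that of Arg-tRNA_His(GUG) in 181 genes (0.811%; 0.332% above and 0.479% below), from that of Arg-tRNA_Trp(CCA) in 5640 (25.3%; 12.1% above and 13.2% below), from that of Ser-tRNA_Arg(CCG) in 9958 (44.6%; 24.7% above and 19.9% below) and from that of Arg-tRNA_Cys(GCA) in 11205 (50.2%; 24.8% above and 25.4% below). The count of 181 moved with single libraries: it was 57 without replicate 1, 49 without replicate 2 and 275 without replicate 3 of the reporter alone, and 24 without replicate 3 of the mc-tRNA group. The 3 chaperones that rose gave examples. HSPA8 rose by 0.53 with Arg-tRNA_His(GUG), and the difference of -0.15 was not called (adjusted p = 0.6), while it rose by 0.92 with Arg-tRNA_Trp(CCA) and 2.50 with Arg-tRNA_Cys(GCA), both above the 0.38 seen here (differences -0.55 and -2.12, adjusted p = 0.000237 and 3.83e-18). DNAJB1 rose by 0.36, 2.20 and 7.27 in those 3 comparisons, against 0.32 here. IFIT2 rose by 3.30 with Ser-tRNA_Arg(CCG), more than the 1.65 here (difference -1.66, adjusted p = 0.0121). The rise of 1.65 here exceeded the change of IFIT2 with Arg-tRNA_His(GUG) by 2.14 (adjusted p = 0.025).

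In 46 genes (0.206%) the effect of Arg-tRNA_Gln(CUG) differed from each of the other 4 effects in one direction, and 11 of these were among the 123 called. FMC1, UNKL, EGFR, FLNA, CACNA2D2, a calcium channel subunit, and MSN rose more than with any other mc-tRNA. GADD45B, a stress-induced growth arrest gene, H1-2, SH2D3C, an adaptor of cell adhesion signals, FOSB and H2AC6 went lower than with any other. The call on the rise of CACNA2D2 (0.29, adjusted p = 0.0306) was lost without replicates 2 or 3 of the reporter alone or replicates 1 or 3 of the mc-tRNA group (adjusted p = 0.134 to 0.251), and that on the fall of GADD45B (-0.46, adjusted p = 0.00384) without replicate 3 of the mc-tRNA group (0.0741). EGFR had log2 changes of 0.03 with Arg-tRNA_Trp(CCA), -0.24 with Arg-tRNA_His(GUG), -0.52 with Ser-tRNA_Arg(CCG) and -0.74 with Arg-tRNA_Cys(GCA), against 0.52 here (adjusted p of the differences 4.64e-11 to 0.00119). H1-2 rose by 2.38 with Ser-tRNA_Arg(CCG), 1.58 with Arg-tRNA_Cys(GCA) and 0.59 with Arg-tRNA_His(GUG), and fell by 0.49 here (adjusted p of the differences 5.72e-16 to 0.00235).

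**Figure D5:**
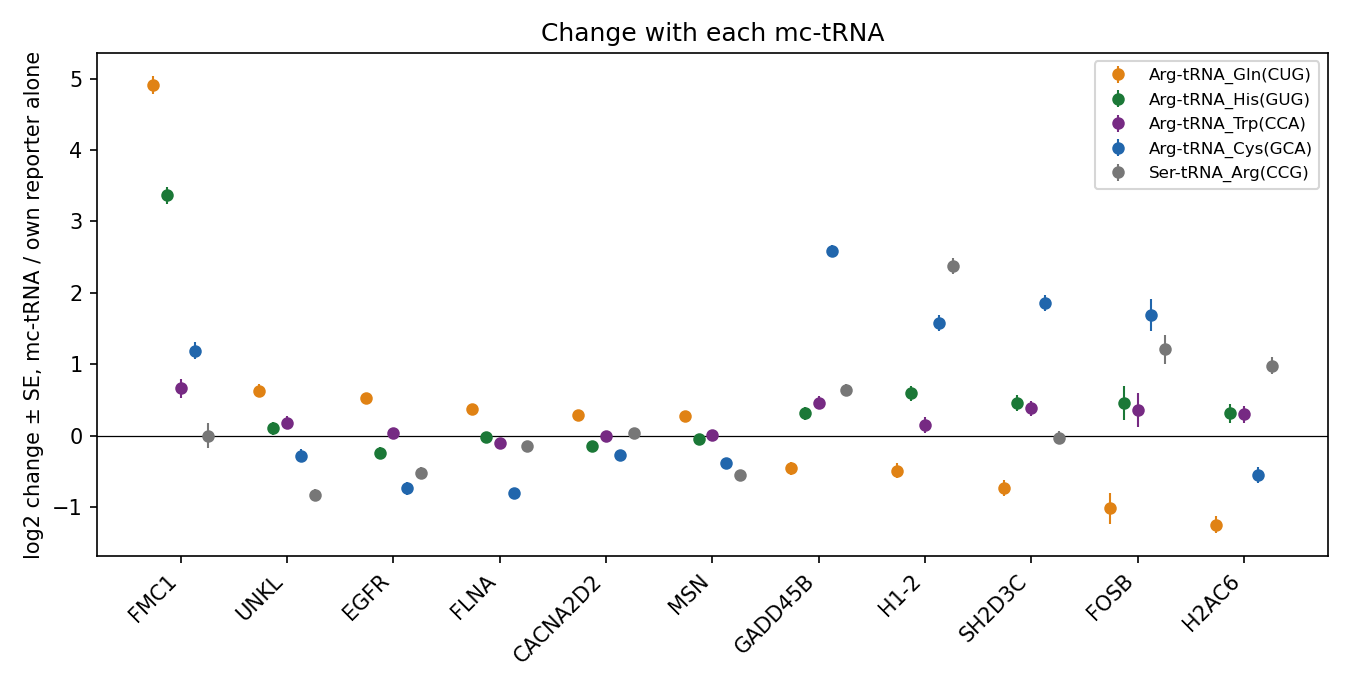
Log2 change ± SE (vertical axis) of the 11 called genes whose change with Arg-tRNA_Gln(CUG) (orange) differed from that with each of the other 4 mc-tRNAs (other colours), each mc-tRNA against its own reporter alone. The orange points are the highest of each set from FMC1 (4.91) to MSN (0.27) and the lowest from GADD45B (-0.46) to H2AC6 (-1.25).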

How the data were processed

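The authors deposited raw read counts per gene, 1 table per library, without normalization. Per the submitters' processing notes the tools were featureCounts, STAR and SAMtools, and the build was hg38. The kit was strand-specific per the labels' protocols, but versions, annotation and the strand setting of the counting were not given in the sources used here, so reads of genes that overlap on either strand cannot be told apart. ERCC spike-in rows were dropped. Symbols came from a symbol table and GENCODE 29 (GRCh38), which held 55109 of the 58278 gene identifiers with the same version. The test was edgeR's robust quasi-likelihood test (version 4.0.16, R 4.3.3) with TMM factors and filterByExpr. All 30 libraries, as 10 groups, entered the fit, which left 20 residual degrees of freedom, so all groups share one estimate of the spread (biological coefficient of variation 8.24%). Log2 changes have standard errors, and called means a Benjamini-Hochberg adjusted p under 0.05 over 22321 genes. DESeq2 1.42.0 was an alternative. A count of 0 allows up to 3 counts, 0.0601 to 0.0735 CPM in these 6 libraries. This floor was scaled by library totals without TMM factors, unlike the other CPM values. Floors and intervals cover counting error only. Promoter sequences are from RefSeq (GRCh38.p14), with an entry for 82 of the 123 called genes. CAG codons stand in for the planned glutamine share of proteins. Values in each library are given for the 12 largest called rises and falls with a symbol, called members of the gene lists (PSMD11 and SQSTM1 as means) and 9 fixed genes. The members and lists were chosen with earlier results of these data known. Not every called gene is named.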

Additional observations from a re-analysis of the deposited data

Results flagged for a closer look

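The effect of Arg-tRNA_Gln(CUG) on 11 called genes differed, by a test of the difference itself (edgeR's quasi-likelihood test, adjusted over all genes), from that of each of the other 4 mc-tRNAs, always in one direction. The log2 changes with Arg-tRNA_Gln(CUG) were 4.91 for FMC1, 0.63 for UNKL, 0.52 for EGFR, 0.37 for FLNA, 0.29 for CACNA2D2 and 0.27 for MSN, each above the 4 other changes. They were -0.46 for GADD45B, -0.49 for H1-2, -0.73 for SH2D3C, -1.02 for FOSB and -1.25 for H2AC6, each below the 4 other changes. Among the largest adjusted p of each gene's differences were those from Arg-tRNA_His(GUG) for MSN (0.32, adjusted p = 0.0485), FLNA (0.38, adjusted p = 0.0385), UNKL (0.53, adjusted p = 0.03) and FOSB (-1.48, adjusted p = 0.027), and from Ser-tRNA_Arg(CCG) for CACNA2D2 (0.26, adjusted p = 0.0239). The reporters differ as well as the mc-tRNAs, and the part of the reporter in these differences cannot be told apart from that of the mc-tRNA. Every EGFP(R65) library, with or without Ser-tRNA_Arg(CCG), had 0 ERCC spike-in counts, against 10 to 106 in the other libraries. Whether the EGFP(R65) libraries form a batch was not tested. Its part in any difference from Ser-tRNA_Arg(CCG) given here cannot be told apart either.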

How the results depend on the processing

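The count of 123 called genes was 244 with DESeq2 (109 lower and the others, rounded to 1.4e+02, higher), 196 with no filter on low counts (105 higher), and 66 with only the 6 libraries in the fit (27 higher, 39 lower). Leaving out 1 library in turn gave 45 to 93 calls (14 to 46 higher, 27 to 50 lower), and 35 of the 123 genes were called in each of these 6 fits. The difference from Arg-tRNA_His(GUG), called in 181 genes, was called in 491 with DESeq2, 366 with no filter, 79 without the EGFP(R65) libraries and 24 to 275 with 1 library left out. DESeq2 gave no adjusted p for 11 of the 123 genes and called the other 112. The replicate block within each reporter gave 196 calls (108 higher, 88 lower; 111 of the 123 genes kept) and 505 for the difference from Arg-tRNA_His(GUG). Deviations of same-numbered libraries correlated at 0.126, -0.077 and 0.14. Replicates 1 and 3 of the reporter alone correlated best with the mc-tRNA library of the same number, and replicate 2 with replicate 1 (0.068). With 3 libraries per group these values cannot decide whether the numbers pair the samples, and the labels do not say so. The block is therefore given as an alternative only. Counts for the other 3 differences stayed within 1.5 times in every alternative. The sign turned for DDIT3 (-0.01 with library totals, -0.03 to 0.07 with 1 library left out), QARS1 (-0.03 to 0.02) and RARS1 (-0.04 to 0.02), all near 0 and not called. The cause of these shifts was not tested, other than that fewer samples enter a fit with a library left out. Genes at or under 3 counts in a library are below what this depth can show.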

Other observations

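The ERCC spike-in sequences, left out of every test, had 98, 106 and 78 counts in the 3 libraries of EGFP(R96Q) alone and 50, 37 and 27 counts with Arg-tRNA_Gln(CUG). CACNA1A, a calcium channel gene with a CAG repeat, was at 0.218, 0.085 and 0.127 CPM in the reporter alone and at 1.65, 0.372 and 0.189 CPM with the mc-tRNA. The first library of the mc-tRNA group set most of that change (2.37 ± 0.64 on the log2 scale), which was not called (adjusted p = 0.123).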
